A study of Mus musculus with 36 samples.

Results

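Immediate early genes are the first genes a cell transcribes after a stimulus, and 10 of them were followed here: Fos, Fosb, Fosl2, Junb, Egr1, Egr3, Arc, Btg2, Nr4a1 and Ier2. They were taken by symbol, in GENCODE M21 names, from the 55487 genes of the deposited expression table, and all 10 were found and had enough reads to be tested in both tissues. The libraries were made from mouse dorsal root ganglion (DRG, where the cell bodies of sensory neurons lie) and dorsal spinal cord (where those neurons end). DRG was the tissue of 18 libraries and cord of 18. In each tissue there were 4 libraries of knockout mice after spared nerve injury (SNI), 5 of naive knockout mice, 4 of wild-type mice after SNI and 5 of naive wild-type mice. SNI cuts some branches of the sciatic nerve and spares another, and it is used as a model of neuropathic pain. Time after injury, age, strain and the allele behind the knockout are not described here, and the labels did not say whether each library came from a separate mouse, so p-values measure only the spread between these libraries.

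The early genes need no new protein to be switched on: kinases and calcium signals act on factors already present, such as CREB and SRF, which bind the early promoters. Many products are transcription factors themselves. FOS and JUN family proteins pair up as AP-1, EGR proteins are zinc finger factors, and NR4A1 is an orphan nuclear receptor. In the dorsal horn, Fos protein has long been used to mark neurons that were active after a painful stimulus. In the DRG, cutting the axon turns on AP-1 and ATF factors that are linked with regrowth.

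Values are CPM, reads of a gene per 1000000 reads on TMM-scaled library sizes, which correct for depth and for a few very abundant genes. Calls were made at an adjusted p under 0.05 in edgeR's quasi-likelihood test, with Benjamini-Hochberg adjustment over all genes tested. Libraries held 21.34 to 27.27 M estimated reads. Naive DRG libraries A2 and A4 were titled wild type, but their genotype field and their column names said knockout. They were taken as knockout. Sensory neuron markers summed to 2030 to 3730 CPM in DRG groups and to 33.8 to 93.0 CPM in cord groups, and no marker of any cell type list was at 0 reads in a whole group. All naive libraries had letters A to C and all SNI libraries letters E and F, so whatever a letter stands for cannot be told apart from the injury.

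Promoters were read from RefSeq (build GRCm38.p6) for the 6 members the table held. These were Fos, Fosb, Fosl2, Junb, Btg2 and Nr4a1. Each window ran from 250 bases before to 50 after an annotated start of transcription. Other starts of the same genes were not read, and Fosl2 has 3 and Nr4a1 4 annotated transcripts. Below are those of 3 genes with sites for CREB and of Fosl2, the member with the largest injury response in DRG, which held none of the motifs searched. They lie at chr12:85473640-85473939 (plus strand, Fos), chr1:134079106-134079405 (minus strand, Btg2), chr15:101266596-101266895 (plus strand, Nr4a1) and chr5:32136222-32136521 (plus strand, Fosl2). Each is written 5′ to 3′ on its gene's strand. Capitals mark the cAMP response element (CRE, TGACGTCA) or its shorter core, TGACG or on the other strand CGTCA.
Fos: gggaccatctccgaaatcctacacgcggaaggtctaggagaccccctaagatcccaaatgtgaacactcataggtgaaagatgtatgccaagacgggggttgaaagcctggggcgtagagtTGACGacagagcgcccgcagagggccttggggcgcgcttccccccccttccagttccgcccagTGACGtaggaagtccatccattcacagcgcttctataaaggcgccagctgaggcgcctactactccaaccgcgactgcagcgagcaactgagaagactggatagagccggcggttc
Btg2: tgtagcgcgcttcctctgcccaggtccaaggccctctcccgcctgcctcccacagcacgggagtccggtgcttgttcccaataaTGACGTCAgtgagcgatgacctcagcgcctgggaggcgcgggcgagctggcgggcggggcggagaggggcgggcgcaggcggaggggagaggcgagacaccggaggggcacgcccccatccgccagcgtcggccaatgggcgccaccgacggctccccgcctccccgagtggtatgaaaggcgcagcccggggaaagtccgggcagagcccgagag
Nr4a1: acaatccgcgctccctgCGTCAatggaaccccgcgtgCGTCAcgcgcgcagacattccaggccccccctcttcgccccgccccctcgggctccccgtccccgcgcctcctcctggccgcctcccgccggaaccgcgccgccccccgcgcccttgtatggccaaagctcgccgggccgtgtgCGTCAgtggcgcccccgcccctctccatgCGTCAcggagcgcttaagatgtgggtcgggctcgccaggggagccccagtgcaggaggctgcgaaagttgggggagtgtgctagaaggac
Fosl2: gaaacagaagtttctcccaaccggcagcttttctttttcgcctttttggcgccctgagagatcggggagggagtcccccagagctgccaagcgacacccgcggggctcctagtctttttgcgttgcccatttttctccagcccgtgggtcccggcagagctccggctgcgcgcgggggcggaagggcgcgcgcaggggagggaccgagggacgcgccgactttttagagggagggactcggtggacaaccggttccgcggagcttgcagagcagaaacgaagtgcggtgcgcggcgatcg

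Fos held cores at positions -129 and -66 from the start of transcription, and Nr4a1 held 4, at -233, -213, -69 and -40. Btg2 held a full CRE at -166, whose 2 overlapping cores are part of it. Fosb and Junb held 1 core each, at -60 and -106. Of 32851 mouse promoters of this length, 1.79% held a CRE and 20.8% a core, on either strand. No AP-1 site (TGANTCA, either strand) was found in the 6 windows, and 7.81% of all promoters held one. No EGR site (GCGTGGGCG, either strand) was found there, and 0.612% of all promoters held one. The CArG box, the site of SRF, was in none of the 6 windows and in 1.63% of all promoters. A TATA box (TATAAA, on the gene's own strand) was in the windows of Fos and Junb and in 8.32% of all promoters. It began at -33 in Fos but at position 0, on the annotated start itself, in Junb. These are matches of letters, not measured binding. Bases farther than 250 before the start were not searched. A motif not found here, the CArG box among them, may therefore lie outside these windows.

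In injured DRG Fosl2, Btg2, Fos and Arc rose in both genotypes and Ier2 rose in knockout DRG, while Junb, Egr1, Egr3, Nr4a1 and Fosb did not pass the test in either. The estimates of all 10 members were above 0 in both genotypes, called or not. In knockout DRG 5 of 10 members rose and 0 fell. Of all 19496 genes tested, 5549 were called there, and 2949 of them (15.1% of all) rose. In wild-type DRG 4 of 10 rose and 0 fell. Of all genes, 4864 were called there, and 2465 of them (12.6% of all) rose. The members were chosen with earlier results of these data known, so these shares are a description and not a test of early genes as a class. The median log2 fold change over the 10 members was 0.46 in knockout and 0.39 in wild type, beside 0.01 and -0.01 over all genes tested.

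Fosl2 encodes FRA-2, a FOS family protein that lacks the strong activation domain of FOS itself. In knockout DRG it had 43.8, 38.8, 39.3 and 37.3 CPM after SNI, against 11.8, 13.6, 10.3, 13.4 and 12.2 CPM in naive knockout DRG. In wild-type DRG it had 29.0, 24.9, 31.1 and 24.1 CPM after SNI, against 10.4, 10.5, 9.37, 11 and 12.9 CPM in naive wild-type DRG. Every injured library lay above every naive library of either genotype. The log2 fold change was 1.73 ± 0.10 (SE; adjusted p = 2.41e-10) in knockout and 1.34 ± 0.10 (adjusted p = 1.23e-08) in wild type, that is, 3.32-fold and 2.53-fold.

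Btg2 encodes an antiproliferative protein that recruits the machinery removing poly(A) tails. It had 16.6, 16.4, 18.4 and 19.1 CPM in injured knockout DRG, against 10.2, 9.68, 9.49, 9.44 and 9.27 CPM in naive knockout DRG. It had 16.7, 20.7, 17.9 and 22.1 CPM in injured wild-type DRG, against 9.28, 10.8, 9.27, 9.74 and 15.6 CPM in naive wild-type DRG. The groups did not overlap in either genotype, although naive wild-type library C1, at 15.6 CPM, came close to the injured libraries. The log2 fold change was 0.91 ± 0.13 (adjusted p = 2.51e-05) in knockout and 0.83 ± 0.13 (adjusted p = 6.5e-05) in wild type.

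Fos, the classic marker of neuronal activity, had 6.82, 10.3, 11.3 and 10.7 CPM in injured knockout DRG, against 7.95, 5.99, 4.46, 5.83 and 6.35 CPM in naive knockout DRG. In injured wild-type DRG it had 7.83, 12.9, 9.18 and 8.23 CPM, against 4.5, 5.77, 6.66, 6.2 and 6.54 CPM in naive wild-type DRG. The wild-type groups were apart, and in knockout the lowest injured library lay below the highest naive one. The rise was of like size, 0.71 ± 0.18 on the log2 scale in knockout (adjusted p = 0.00519) and 0.69 ± 0.18 in wild type (adjusted p = 0.00706).

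Arc, whose protein acts at synapses in the removal of AMPA receptors, also rose in both genotypes. It had 6.21, 5.07, 4.79 and 4.18 CPM in injured knockout DRG, against 3.36, 2.4, 2.65, 3.39 and 3.1 CPM in naive knockout DRG, with no overlap. It had 7.32, 4.08, 6.59 and 3.95 CPM in injured wild-type DRG, against 4.04, 3.32, 4.76, 3.63 and 3.43 CPM in naive wild-type DRG, where 2 injured libraries lay among the naive ones. The log2 fold change was 0.80 ± 0.19 in knockout (adjusted p = 0.00318) and 0.53 ± 0.18 in wild type (adjusted p = 0.0407). The wild-type call was lost when injured replicate 1 or 3 or naive replicate 2, 4 or 5 was left out (log2 fold change 0.37 to 0.67 and adjusted p 0.0106 to 0.154 over the 9 fits that each left out 1 library), and also with limma (adjusted p = 0.064) or with only the 2 groups in the fit (adjusted p = 0.108).

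Ier2, a small nuclear protein gene, had 4.86, 4.86, 5.46 and 4.72 CPM in injured knockout DRG, against 4.06, 3.24, 3.66, 2.98 and 3.29 CPM in naive knockout DRG. These did not overlap (log2 fold change 0.56 ± 0.14, adjusted p = 0.00652). In wild type it averaged 4.87 ± 0.564 CPM after SNI (SD, n = 4) and 4.09 ± 0.896 CPM in naive DRG (SD, n = 5), with a log2 fold change of 0.26 ± 0.14 (adjusted p = 0.211). The 2 responses of Ier2 differed by 0.30 ± 0.20 (unadjusted p = 0.154, adjusted p = 0.847), so a difference between genotypes was not shown. Junb, an AP-1 partner that can restrain JUN, stood near the threshold. It had 11.5, 12.9, 11.6 and 10.8 CPM in injured wild-type DRG, against 5.29, 9.05, 10.8, 10.7 and 7.09 CPM in naive wild-type DRG. Its log2 fold change there was 0.46 ± 0.17 (adjusted p = 0.0575) and in knockout 0.36 ± 0.17 (adjusted p = 0.133). Over the 6 alternatives run, the adjusted p in wild type was 0.0381 to 0.119 and passed in 3, and it passed in 2 of the 9 fits that left out 1 library (0.0261 to 0.128). Junb shares 173 of its 2301 exon bases with Prdx2 on the opposite strand; the library kit keeps strand, but whether the counting used it was not given, so reads there may be shared.

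The remaining members had small estimates in injured DRG. Egr1, an inducible zinc finger factor, averaged 13.3 ± 2.13 CPM in injured and 13.2 ± 3.99 CPM in naive knockout DRG, and 16.1 ± 3.89 CPM in injured and 15.8 ± 4.32 CPM in naive wild-type DRG. Its log2 fold change was 0.05 ± 0.23 in knockout and 0.03 ± 0.22 in wild type, an error that leaves room for moderate changes. Nr4a1 had a smaller error, at 0.08 ± 0.09 in knockout and 0.07 ± 0.09 in wild type. Egr3, known for its role in muscle spindle development, was at 0.17 ± 0.25 and 0.22 ± 0.25. Fosb, a FOS relative with a long-lived splice form, was at 0.13 ± 0.34 and 0.32 ± 0.35, from 3 to 76 reads per library over both tissues.

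**Figure D1:**
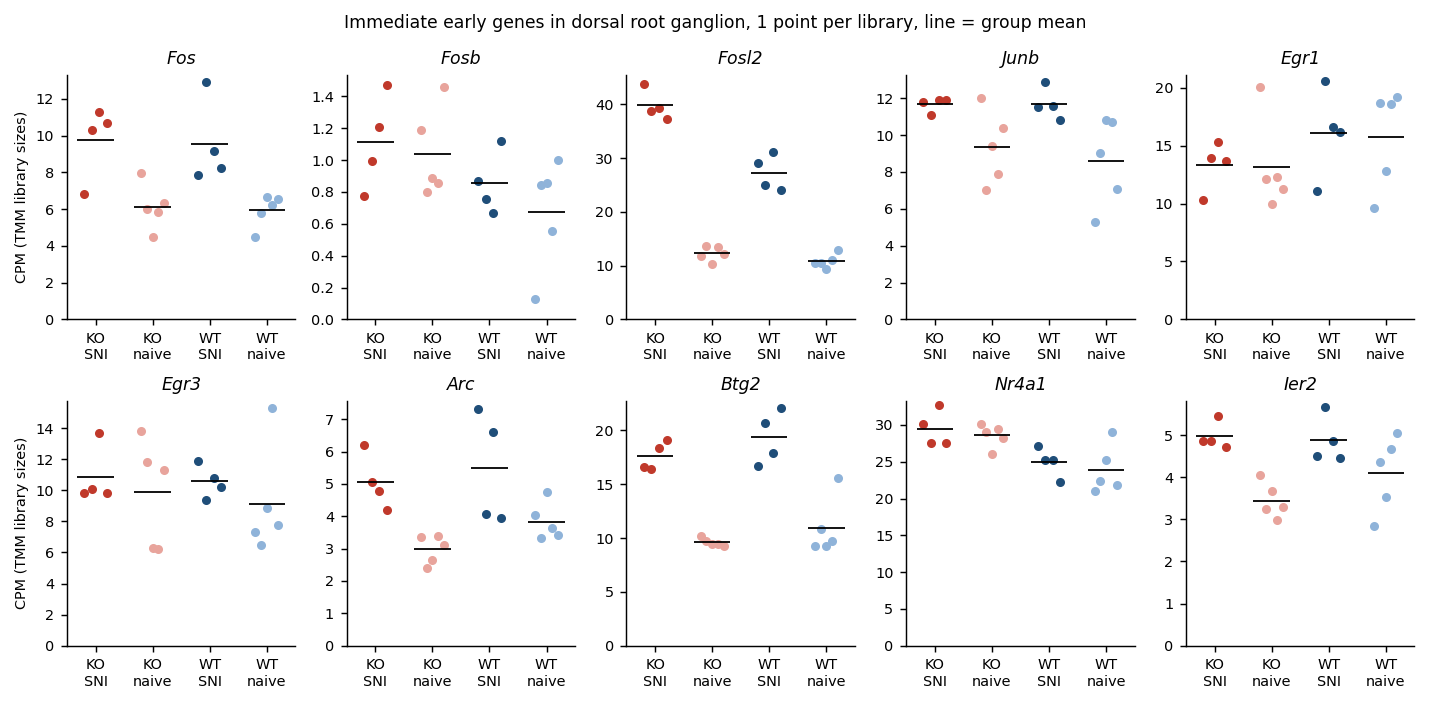
CPM of the 10 genes in the 18 DRG libraries (vertical axes from 0, each gene on its own scale), with 1 point per library and a line at the group mean, for knockout after SNI, naive knockout, wild type after SNI and naive wild type. Fosl2 stood at 37.3 to 43.8 CPM in injured knockout DRG and 24.1 to 31.1 CPM in injured wild-type DRG, above all naive libraries.

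Macrophage markers moved with the injury. All 10 of 10 rose in each genotype, and their summed level was 555 to 758 CPM in injured and 165 to 288 CPM in naive knockout DRG, and 603 to 1170 CPM in injured and 246 to 488 CPM in naive wild-type DRG. Sensory neuron markers summed to 2510 to 2910 CPM in injured and 3290 to 3730 CPM in naive knockout DRG, and to 2030 to 2820 CPM in injured and 2340 to 3460 CPM in naive wild-type DRG, with 3 of 7 falling in each genotype. Of all 19496 genes tested, 5549 were called in knockout, where 2949 rose and the others fell. In wild type 4864 were called, where 2465 rose and the others fell. In such bulk tissue fewer cells of a type and less RNA per cell cannot be told apart, and the part of these cell types in the early gene response was not tested.

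Other early genes and their regulators, 65 genes in 7 lists, gave the setting. Of the 64 tested, 26 rose and 2 fell in injured knockout DRG, and 29 rose and 1 fell in injured wild-type DRG, with median log2 fold changes of 0.26 and 0.25. Of all genes tested, 15.1% rose in knockout and 12.6% in wild type, and the rest of the 5549 and 4864 called genes fell. The lists too were chosen with earlier results of these data known, so their counts are a description. Among AP-1 partners 5 of 8 rose in knockout and 6 of 8 in wild type. Atf3, a stress-induced partner of JUN, averaged 353 ± 18.8 CPM in injured and 7.0 ± 0.899 CPM in naive knockout DRG (log2 fold change 5.69 ± 0.11), and 333 ± 41.9 CPM in injured and 5.53 ± 0.674 CPM in naive wild-type DRG (5.92 ± 0.11). Jun rose by 1.00 ± 0.15 in knockout and 1.40 ± 0.15 in wild type. Of 14 other early transcription factors 7 rose in knockout and 9 in wild type, among them Klf6 (1.25 ± 0.05 and 1.09 ± 0.05) and Csrnp1 (1.36 ± 0.15 and 1.46 ± 0.15). Of 12 feedback phosphatases and decay factors 5 rose and 2 fell in knockout, and 6 rose and 0 fell in wild type. Socs3, the cytokine feedback inhibitor, rose by 1.20 ± 0.18 and 1.09 ± 0.18, and Dusp5, an ERK phosphatase, fell by 0.67 in knockout. Of 14 early effectors 2 rose and 0 fell in knockout, and 2 rose and 1 fell in wild type, led by Gadd45g (1.58 ± 0.12 and 1.72 ± 0.12). Here 2 of 14 is near the share of all genes that rose. In the EGR list, Nab1, a corepressor of EGR factors, was the 1 gene of 3 tested that rose, by 0.25 ± 0.06 and 0.21 ± 0.06. Of the 2 other NR4A receptors Nr4a2 rose in knockout (0.41 ± 0.13) and Nr4a3 in wild type (0.81 ± 0.28). Of 11 upstream regulators 5 rose in knockout and 4 in wild type, among them Elk3, an SRF partner (1.28 ± 0.10 and 0.84 ± 0.09).

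In the dorsal cord the same injury moved few members. In wild-type cord 0 of 10 were called, where 2.88% of all 18843 genes tested were; no member had an unadjusted p under 0.05, beside 2098 of all genes, and DESeq2 also called 0. In knockout cord 1 of 10 was called, Egr3, which fell, where 0.626% of all genes fell and 3.79% rose. The median over the 10 members was 0.07 in both genotypes, beside -0.01 over all genes.

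Egr3 had 4.33, 5.33, 4.02 and 4.84 CPM in injured knockout cord, against 6.59, 7.88, 6.3, 6.15 and 7.6 CPM in naive knockout cord. All 4 injured libraries lay below all 5 naive ones. In wild-type cord it had 3.95, 5.82, 5.12 and 5.52 CPM after SNI, against 5.43, 5.37, 4.29, 7.36 and 5.65 CPM in naive wild-type cord, and these overlapped. The log2 fold change was -0.58 ± 0.14 in knockout (adjusted p = 0.0105) and -0.14 ± 0.14 in wild type (adjusted p = 0.788). The difference between the 2 responses was -0.44 ± 0.19 (unadjusted p = 0.0331, adjusted p = 0.796), so a difference between genotypes was not shown. Without injured knockout replicate 3 the adjusted p of the fall was 0.0601.

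Fos, whose protein marks active dorsal horn neurons, averaged 20.6 ± 2.39 CPM in injured and 19.9 ± 4.96 CPM in naive knockout cord, and 19.2 ± 1.66 CPM in injured and 18.5 ± 4.25 CPM in naive wild-type cord. Its log2 fold change was 0.05 ± 0.18 in both genotypes. Junb averaged 9.09 ± 0.718 CPM in injured and 7.21 ± 1.01 CPM in naive knockout cord (log2 fold change 0.33 ± 0.10, adjusted p = 0.0659). Fosl2 was at 0.36 ± 0.18 in knockout cord (adjusted p = 0.357) and 0.16 ± 0.18 in wild-type cord (adjusted p = 0.834). Without naive knockout replicate 2, the library with 16.4 CPM against 8.31 to 10.8 CPM in its group, the Fosl2 estimate in knockout cord was 0.56 (adjusted p = 0.012).

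**Figure D2:**
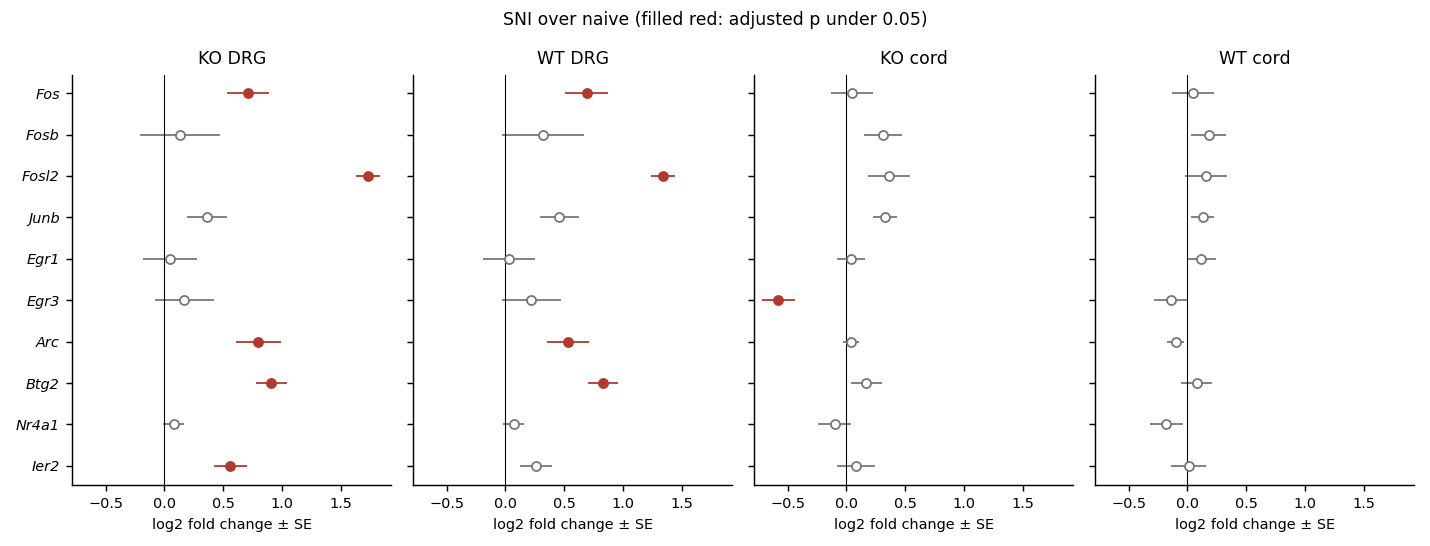
Log2 fold change of SNI over naive (horizontal axis, points with bars of 1 SE) for the 10 genes in knockout DRG, wild-type DRG, knockout cord and wild-type cord, red where the adjusted p was under 0.05. Fosl2 lies at 1.73 and 1.34 in DRG and at 0.36 and 0.16 in cord, and Egr3 at -0.58 in knockout cord.

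The cord did respond to the injury in other genes. Microglial markers summed to 424 to 450 CPM in injured and 213 to 244 CPM in naive knockout cord, and to 420 to 450 CPM in injured and 226 to 255 CPM in naive wild-type cord. All 7 of 7 markers rose in knockout and 6 of 7 in wild type. Sensory neuron markers summed to 68.4 to 93.0 CPM in injured and 35.5 to 44.6 CPM in naive knockout cord. In wild-type cord they summed to 38.1 to 76.5 CPM after SNI and 33.8 to 54.3 CPM in naive mice. In each genotype 1 of these 7 rose, and the part of either cell type in the values below was not tested. Of the 64 genes tested in the other lists, early genes and upstream regulators together, 8 rose and 1 fell in knockout cord, and 5 rose and 0 fell in wild-type cord. Of all genes tested, 3.79% rose and 0.626% fell in knockout cord, and 2.88% were called in either direction in wild-type cord. Among the called list genes, the upstream regulators Elk3 and Rps6ka1 rose in both genotypes and Mrtfb fell in knockout. Atf3 averaged 27.5 ± 6.96 CPM in injured and 0.888 ± 0.299 CPM in naive knockout cord, and 24.6 ± 9.54 CPM in injured and 0.905 ± 0.388 CPM in naive wild-type cord. Socs3 rose by 1.43 ± 0.20 in knockout and 0.93 ± 0.20 in wild type, and Crem, a cAMP-responsive factor, by 0.36 ± 0.08 and 0.35 ± 0.08.

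The injury response of 3 members was larger in DRG than in cord, tested as the difference of the 2 responses over all 36 libraries. They were Fosl2, Btg2 and Arc in both genotypes, 3 of 10 where 6.69% of 20626 genes had the larger value in DRG for knockout and 5.59% for wild type. The difference was 1.33 ± 0.20 log2 units for Fosl2 in knockout (adjusted p = 7.08e-06) and 1.16 ± 0.20 in wild type (adjusted p = 7.5e-05). It was 0.70 ± 0.19 for Btg2 in knockout (adjusted p = 0.0094) and 0.74 ± 0.19 in wild type (adjusted p = 0.00696). It was 0.72 ± 0.20 for Arc in knockout (adjusted p = 0.00795) and 0.61 ± 0.19 in wild type (adjusted p = 0.0255), and the last call was lost without injured wild-type DRG replicate 1 or 3 or injured wild-type cord replicate 1 (adjusted p up to 0.101). For Fos the difference was 0.62 ± 0.26 in both, with adjusted p = 0.1 in knockout and 0.122 in wild type.

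Knockout was compared with wild type within each state of injury. In injured DRG 1 of 10 members was called, Fosl2, which was higher in knockout, where 2.39% of all genes were higher and 2.71% lower. The 4 injured knockout libraries, at 37.3 to 43.8 CPM, lay above the 4 injured wild-type libraries, at 24.1 to 31.1 CPM. The log2 fold change was 0.55 ± 0.10, or 1.46-fold (adjusted p = 0.00276), and it was called in each of the 8 fits that left out 1 of these libraries and in each of the alternatives run. In naive DRG Fosl2 was at 0.16 ± 0.10 (adjusted p = 0.229). The difference between the injury responses of the 2 genotypes was 0.39 ± 0.14 (unadjusted p = 0.0133, adjusted p = 0.799). In that test 0 members and 0.0256% of all genes were called, with 1 member and 1160 genes at an unadjusted p under 0.05; DESeq2 also called 0 members. A larger response to injury in knockout DRG was thus not shown after adjustment. Beside this, macrophage markers summed to 555 to 758 CPM in injured knockout and 603 to 1170 CPM in injured wild-type DRG, and 0 of 10 were called.

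Nr4a1 leaned the same way in both states of injury. It had 30.2, 27.5, 32.7 and 27.5 CPM in injured knockout DRG, against 27.2, 25.3, 25.2 and 22.2 CPM in injured wild-type DRG, just apart (log2 fold change 0.25 ± 0.09, adjusted p = 0.142). It had 30.2, 29.0, 26.0, 29.5 and 28.3 CPM in naive knockout DRG, against 21, 22.4, 25.2, 29.1 and 21.9 CPM in naive wild-type DRG, where 1 wild-type library lay among the knockouts. Here the log2 fold change was 0.24 ± 0.08 (adjusted p = 0.0417), and Nr4a1 was the 1 member of 10 called in naive DRG, where 12.8% of all genes were higher in knockout and 15.4% lower.

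Blood markers moved with genotype in naive DRG. Their sum was 189 to 600 CPM in naive knockout and 721 to 3440 CPM in naive wild-type DRG, and 5 of 5 were lower in knockout. Neutrophil markers summed to 21.7 to 74.3 CPM in naive knockout and 79.1 to 453 CPM in naive wild-type DRG, and general neuronal markers to 13600 to 17100 CPM in naive knockout and 9420 to 13100 CPM in naive wild-type DRG. Other cell types differed too. Lower in naive knockout DRG were 7 of 10 macrophage, 3 of 7 microglia, 4 of 7 endothelial, 3 of 6 mural and 3 of 6 fibroblast markers. Of 8 satellite glia and astrocyte markers 5 were higher and 1 lower. With the haemoglobin level of each library in the fit, Nr4a1 was at 0.05 (adjusted p = 0.921), and 540 genes in place of 5506 were called. This level, the mean log2(CPM + 1) of the 5 blood markers, ran from 4.07 to 5.701 in naive knockout DRG. In naive wild-type DRG it ran from 6.099 to 8.306, with no overlap. That fit therefore cannot tell blood level and genotype apart. The Nr4a1 call was also lost without libraries A2 and A4 (0.21, adjusted p = 0.143) and in 7 of the 10 fits that left out 1 library. Of the 64 genes tested in the other lists 10 were higher and 4 lower in naive knockout DRG, beside the 12.8% and 15.4% of all genes, so the higher calls are near the share of any genes. They include Sgk1, a kinase gene induced by glucocorticoids (0.67 ± 0.13), and Per1, a clock gene (0.69 ± 0.19). In injured DRG 1 was called, Homer1, a synaptic scaffold gene (0.25 ± 0.07).

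**Figure D3:**
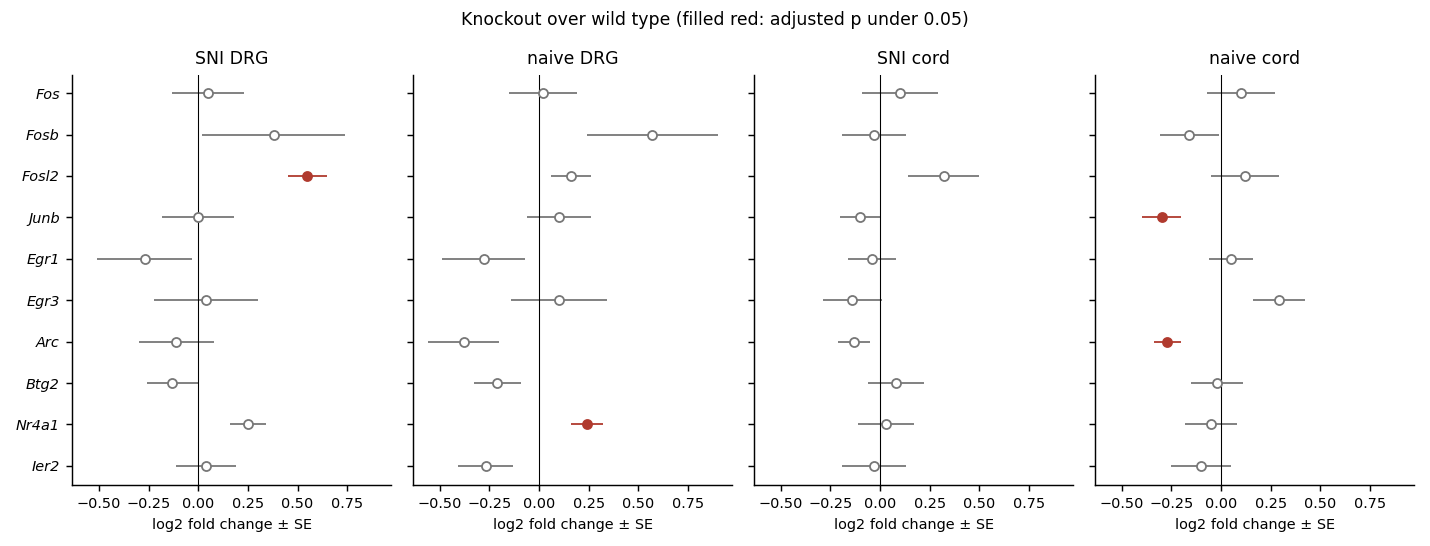
Log2 fold change of knockout over wild type (horizontal axis, points with bars of 1 SE) for the 10 genes in injured DRG, naive DRG, injured cord and naive cord, red where the adjusted p was under 0.05. The called values are Fosl2 in injured DRG (0.55), Nr4a1 in naive DRG (0.24), and Arc (-0.27) and Junb (-0.30) in naive cord.

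In naive cord 2 of 10 members were lower in knockout, where 9.94% of all genes were lower and 9.79% higher. Arc had 20.8, 22.1, 21.1, 23.9 and 24.4 CPM in naive knockout cord, against 28.4, 27.9, 24.2, 28.6 and 26.2 CPM in naive wild-type cord. Only the lowest wild-type library lay within the knockout range (log2 fold change -0.27 ± 0.07, adjusted p = 0.00736). Junb had 7.61, 6.95, 8.49, 7.27 and 5.71 CPM in naive knockout cord, against 10.1, 8.81, 7.8, 8.28 and 9.24 CPM in naive wild-type cord, with 2 wild-type libraries below the highest knockout. Its log2 fold change was -0.30 ± 0.10 (adjusted p = 0.0302), and the call was lost in 6 of the 10 fits that left out 1 library (adjusted p 0.0104 to 0.0976). Egr3 was at 0.29 ± 0.13 (adjusted p = 0.105). Blood markers summed to 141 to 178 CPM in naive knockout and 175 to 496 CPM in naive wild-type cord, with 4 of 5 lower, and the part of this in the 2 calls was not tested. In injured cord 0 of 10 members were called, where 6.26% of all genes were, and no member had an unadjusted p under 0.05, beside 3703 of all genes; DESeq2 also called 0. Fosl2 had 12.2, 14.4, 14.8 and 14.9 CPM in injured knockout cord, against 10.9, 10.8, 12.1 and 11.1 CPM in injured wild-type cord. These were just apart, with a log2 fold change of 0.32 ± 0.18 (adjusted p = 0.359; 0.0217 with only the 2 groups in the fit). The interaction in cord called 0 members and 0.0% of all genes, with 1 member and 1150 genes at an unadjusted p under 0.05; DESeq2 called 0 members too.

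**Figure D4:**
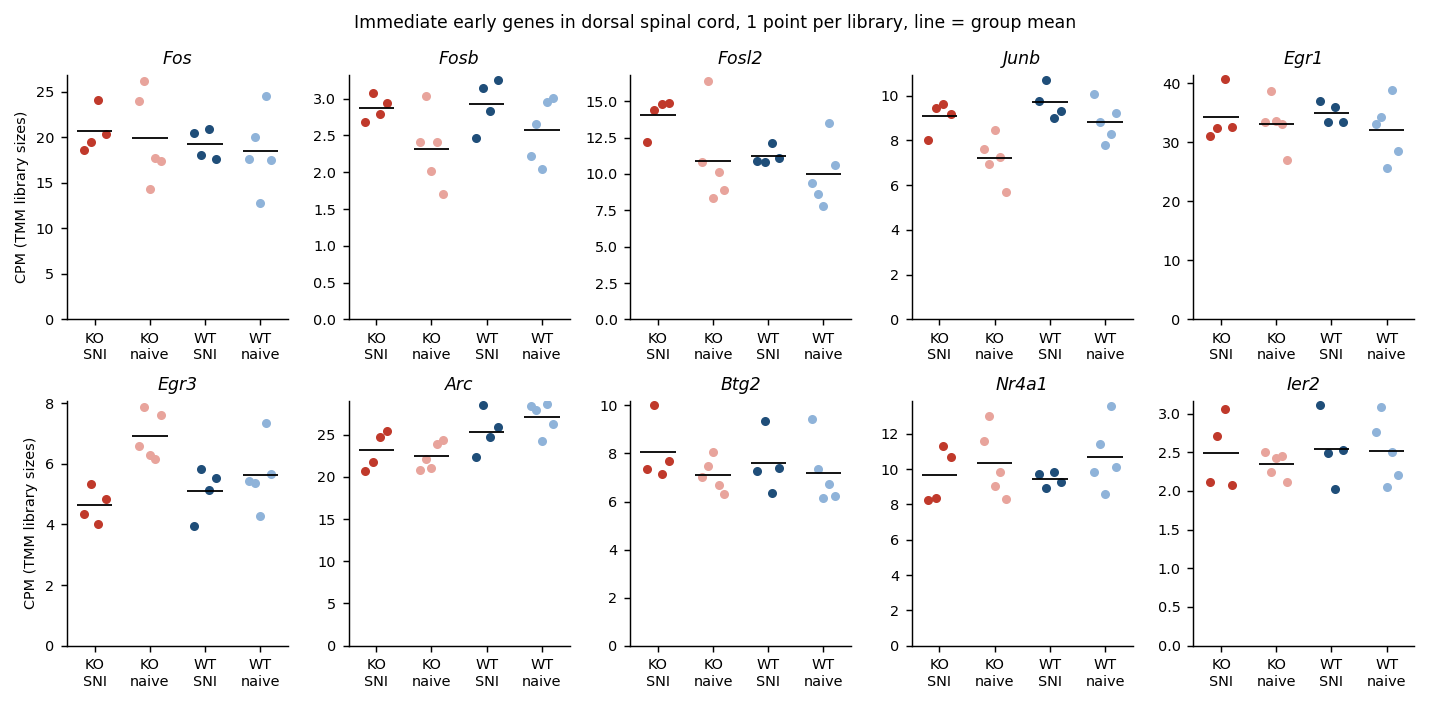
CPM of the 10 genes in the 18 cord libraries (vertical axes from 0, each gene on its own scale), with 1 point per library and a line at the group mean, for knockout after SNI, naive knockout, wild type after SNI and naive wild type. Egr3 was at 4.02 to 5.33 CPM in injured and 6.15 to 7.88 CPM in naive knockout cord, and Arc at 20.8 to 24.4 CPM in naive knockout and 24.2 to 28.6 CPM in naive wild-type cord.

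The resting levels of the early genes differed by tissue. In naive wild-type mice 4 members were higher in DRG than in cord and 4 lower, where 40.1% of all genes were higher and 36.6% lower, so the share called is near that of any genes. Arc averaged 3.84 ± 0.584 CPM in DRG and 27.1 ± 1.85 CPM in cord (SD, n = 5 each; log2 fold change -2.82 ± 0.13, adjusted p = 2.77e-20). The log2 fold change was -1.90 ± 0.25 for Fosb, -1.63 ± 0.18 for Fos and -1.02 ± 0.17 for Egr1. Arc and these genes did not overlap between tissues, but the share of all genes that were likewise apart was not counted. Nr4a1 was higher, with 23.9 ± 3.31 CPM in DRG and 10.7 ± 1.9 CPM in cord (log2 fold change 1.16 ± 0.11, adjusted p = 1.38e-11). Ier2 (0.70 ± 0.14), Egr3 (0.69 ± 0.20) and Btg2 (0.61 ± 0.13) were also higher in DRG. Fosl2 (0.12 ± 0.14) and Junb (-0.04 ± 0.14) did not pass the test.

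Per kilobase of exon, the order of levels was not the same in the 2 tissues. The length was that of all exons of a gene merged over its annotated transcripts, not of the transcripts expressed. It was longest for Fosl2 (9680 bases) and Fosb (6243 bases), so the place of a gene in each order depends on this choice. In naive wild-type DRG Nr4a1 led with 6.82 ± 0.943 CPM per kb. Btg2 (3.99 ± 0.972), Junb (3.73 ± 1.03) and Egr1 (3.53 ± 0.964) followed, then Ier2 (2.69 ± 0.588), Fos (2.52 ± 0.371) and Egr3 (2.07 ± 0.80), then Arc (1.25 ± 0.191) and Fosl2 (1.12 ± 0.135), and Fosb was last with 0.108 ± 0.0558. Apart from Nr4a1 and Btg2, and Fosl2 and Fosb, the ranges of mean ± SD of neighbours in this order overlapped. In naive wild-type cord Arc (8.86 ± 0.604), Fos (7.85 ± 1.81) and Egr1 (7.14 ± 1.15) led. Junb (3.85 ± 0.385), Nr4a1 (3.05 ± 0.541) and Btg2 (2.62 ± 0.49) followed, then Ier2 (1.65 ± 0.272), Egr3 (1.28 ± 0.252) and Fosl2 (1.03 ± 0.23), and Fosb was last with 0.413 ± 0.0685. Here the steps from Egr1 to Junb, from Btg2 to Ier2 and from Fosl2 to Fosb left no overlap of these ranges, and the other neighbours overlapped. After SNI, Fosl2 reached 4.11 ± 0.292 CPM per kb in knockout and 2.82 ± 0.344 in wild-type DRG.

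Some pairs of members varied together among libraries of the same group. With each group's mean taken from log2(CPM + 1), Pearson's r was computed for the 45 pairs in each tissue over 18 libraries, and 2-sided p-values from 100000 permutations within groups were adjusted over all 90 pairs. In DRG the median r was 0.31 and 34 of 45 pairs were positive. In cord the median was 0.27 and 39 of 45 were positive.

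In cord 7 pairs passed. Fos and Nr4a1 had r = 0.89 (rho = 0.91, permutation p = 5e-05, adjusted 0.004), and r was 0.82 without the 2 libraries farthest from the median of Fos. Egr1 and Nr4a1 had r = 0.85 (rho = 0.80, permutation p = 9e-05, adjusted 0.004; 0.78 without 2 libraries). Fos and Fosl2 had r = 0.82 (rho = 0.76, permutation p = 0.0011, adjusted 0.017; 0.71 without 2). These genes were high together in naive knockout replicate 2 (Fos 26.2, Nr4a1 13.0 and Fosl2 16.4 CPM) and in naive wild-type replicate 4 (Fos 24.5, Nr4a1 13.6 and Fosl2 13.5 CPM). Fosl2 and Nr4a1 had r = 0.80 (rho = 0.73, permutation p = 0.00072, adjusted 0.016; 0.66 without 2). Fos and Egr1 had r = 0.77 (rho = 0.78, permutation p = 0.0017, adjusted 0.022; 0.64 without 2). Fosb and Fosl2 had r = 0.77 (permutation p = 0.0038, adjusted 0.034; 0.64 without 2), but their rho of 0.68 had an adjusted p of 0.082. Junb and Btg2 had r = 0.65 (permutation p = 0.003, adjusted 0.03; 0.65 without 2), with rho of 0.60 (adjusted p = 0.14).

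In DRG 3 pairs passed. Fos and Egr1 had r = 0.79 (rho = 0.72, permutation p = 0.00031, adjusted 0.0093; 0.77 without 2). Egr1 and Ier2 had r = 0.79 (rho = 0.78, permutation p = 0.0011, adjusted 0.017; 0.67 without 2). Egr3 and Nr4a1 had r = 0.69 (permutation p = 0.003, adjusted 0.03; 0.50 without 2), with rho of 0.58 (adjusted p = 0.14). Arc and Btg2 ran against each other, with rho of -0.76 (adjusted p = 0.04) but r = -0.60 (permutation p = 0.016, adjusted 0.12; -0.49 without 2). Fosl2, the member with the largest injury response in DRG, followed the mean of the other 9 members least after Arc, with r = 0.09 over the 18 DRG libraries, beside -0.15 for Arc and 0.70 for Egr1 and Ier2. In cord the value for Fosl2 was 0.68.

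**Figure D5:**
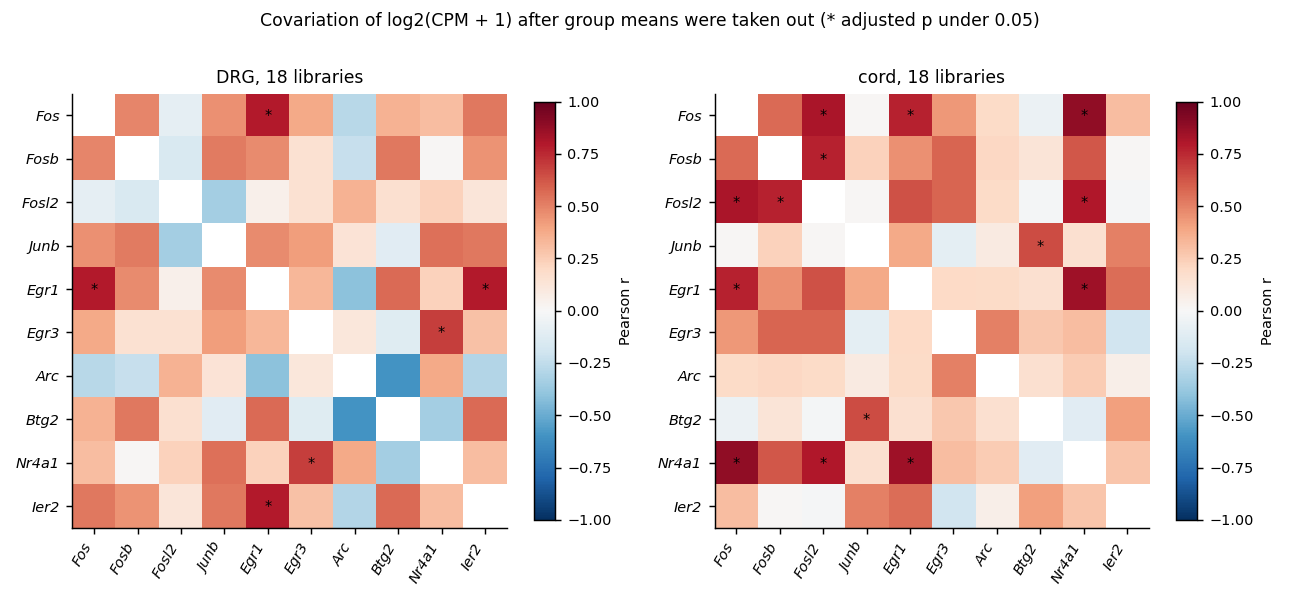
Pearson's r between the 10 genes over 18 DRG libraries (left) and 18 cord libraries (right), from log2(CPM + 1) with group means removed; red is positive, blue negative, and a star marks an adjusted p under 0.05. The highest values are 0.79 in DRG (Fos with Egr1 and Egr1 with Ier2) and 0.89 in cord (Fos with Nr4a1), and the lowest in DRG is -0.60 (Arc with Btg2).

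The genes outside the lists whose within-group pattern was most like the mean of the 10 members were, in DRG, Ppil1, Lamtor2, H2afx, Fhdc1, Atp5g1, Wdyhv1, Gadd45a and Gng7 (r from 0.74 to 0.78, of 14742 genes). In cord they were Zfp319, Ctdp1, Cpsf7, Jmjd8, 1700017B05Rik, Zfp954, Dennd2a and Arnt2 (r from 0.79 to 0.86, of 14474 genes). No gene is in both sets of 8. They were picked as the highest of all genes ranked and no p-value was computed, so this is a description and a link with the members was not tested.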

How the data were processed

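Raw values were expected counts per gene, deposited by the authors for 55487 genes in 36 libraries. The submitters' processing notes name RSEM, HISAT2, FastQC 0.11.5 and build GRCm38, without the versions of the first 2 or an annotation. Per the labels' protocols, libraries were stranded poly(A) libraries. The other deposited table held signal values, the raw column times 1 TMM factor each, for 52999 genes, and was used only with limma and to restore 1 cell. In the deposited table the column of library E1, recorded as other, had 9150 cells with decimal commas, read as points.

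Counts were rounded. edgeR 4.0.16 (R 4.3.3) fitted the quasi-likelihood model per tissue over 18 libraries in 4 groups, with TMM and filterByExpr, and over 36 libraries in 8 groups across tissues; it was tested on simulated data. Alternatives were DESeq2 1.42.0, limma 3.58.1, other size factors, no filter, only the 2 groups, replicate blocks, a haemoglobin score, and each library left out. All 10 members are named, and of each other list genes among the 6 called with the lowest adjusted p in a comparison. Members and lists were chosen with earlier results of these data known. Some libraries share a number in the column names. After group means were taken out, r was -0.063 to 0.358 for such DRG and cord libraries of the same genotype. It was -0.359 to 0.579 for such knockout and wild-type libraries of the same tissue. The labels do not say whether the number marks an animal, so libraries were not paired in the main fits. Over both tissues, limma put the correlation of libraries sharing genotype, injury and number at 0.0495. Counts give precision for sampling error only. The gene targeted in the knockout is not reported here.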

Additional observations from a re-analysis of the deposited data

Results flagged for a closer look

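Single libraries stood apart from the rest of their group in 6 of the 80 groups of values checked (10 genes in 8 groups), where chance gives about 1 in 20 such groups. Fosl2 was lowest in 1 injured knockout cord library, at 12.2 CPM beside 14.4 to 14.9 CPM in the others. Egr1 was highest in naive knockout DRG library A2, at 20.1 CPM beside 10 to 12.3 CPM, and in 1 injured knockout cord library, at 40.7 CPM beside 31.1 to 32.6 CPM. Egr3 was highest in 1 injured knockout DRG library, at 13.7 CPM beside 9.81 to 10.1 CPM, and in 1 naive wild-type DRG library, at 15.3 CPM beside 6.49 to 8.84 CPM. Btg2 was highest in naive wild-type DRG library C1, at 15.6 CPM beside 9.27 to 10.8 CPM.

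The injury response differed between DRG and cord, by a test of the difference itself, for Fosl2 (1.33 log2 units in knockout, 1.16 in wild type), Arc (0.72 in knockout, 0.61 in wild type) and Btg2 (0.70 in knockout, 0.74 in wild type).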

How the results depend on the processing

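No direction of a called member reversed under any alternative run. For knockout against wild type in naive DRG, where 1 member was called, the count was 0 with no filter on low counts, 0 without libraries A2 and A4, 0 with the haemoglobin score and 2 with only the 2 groups in the fit. With only the 2 groups it was 1 in place of 2 in naive cord and 1 in place of 0 in injured cord. Leaving out each library gave 0 to 1 called members for naive DRG, 1 to 3 for naive cord, 0 to 2 for SNI in knockout cord and 3 to 5 for the DRG minus cord response in knockout; it gave 3 to 5 for SNI in wild-type DRG (4 called) and 2 to 4 for the DRG minus cord response in wild type (3 called). The cause was not tested. The replicate block by column number (added after seeing the data) and by library letter left the count at 1 in naive and 1 in injured DRG, 2 in naive and 0 in injured cord, and 0 for both interactions.

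Over all genes, the interaction in DRG called 5 genes, against 24 with DESeq2, 0 and 3 with the replicate block by number and by letter, 1 with the haemoglobin score and 2 without A2 and A4. Naive DRG called 5506 genes, against 540 with the haemoglobin score and 2626 without A2 and A4. The score did not overlap between the genotypes in naive DRG, so the fit with it cannot tell blood level and genotype apart. With only the 2 groups in the fit, injured DRG called 649 in place of 994, and SNI in wild-type DRG 3216 in place of 4864. Fosb had 3 to 76 reads per library, which limits its precision.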

Other observations

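DRG and cord libraries that share a number in their column names, a number whose meaning the labels do not give, were compared over 18 pairs after group means were taken out. None of 10 members passed the adjustment over the 10 tests. Arc had r = -0.61 (rho = -0.53, permutation p = 0.024, adjusted 0.24; -0.55 without the 2 libraries farthest from the median) and Fosl2 r = 0.46 (rho = 0.48, permutation p = 0.099, adjusted 0.36; 0.45 without 2).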
